A study of Mus musculus with 24 samples.

Results

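Cdh5, Pecam1, Kdr, Flt1, Tek, Tie1 and Emcn are 7 genes that mark the endothelium, the cell layer that lines blood vessels. They are textbook markers, taken by name with earlier results of these data known. They were followed in eWAT, the epididymal white fat pad of the male mouse. Each of the 7 had exactly 1 probe set that carried its symbol alone, and all 7 were among the 15526 genes tested of 22180 measured. Total RNA of 24 mice was hybridised to 24 Affymetrix arrays, 1 per mouse, in 8 groups of 3. CON mice carried Syt10-Cre/Cre x Bmal1-+/- and MUT mice carried Syt10-Cre/Cre x Bmal1-flox/-, so both genotypes were homozygous for the Cre transgene and both carried 1 null allele of Bmal1 (Arntl), a core activator of the circadian clock. In MUT the remaining allele was floxed, so its loss was limited to cells in which the Syt10 promoter had driven Cre, among them the suprachiasmatic nucleus, the brain's central pacemaker. Mice of both genotypes spent 2 weeks in a light-dark cycle, were moved to constant darkness and were killed on day 2 of darkness at CT (circadian time) 1, 7, 13 or 19, that is, every 6 h. The labels used here give neither age nor sex. The comparisons asked whether the endothelial markers varied over 24 h in CON and in MUT, and how MUT differed from CON.

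Cdh5 encodes VE-cadherin, the adhesion protein of endothelial adherens junctions, and Pecam1 encodes PECAM-1 (CD31), which sits at endothelial cell contacts and is also carried by leukocytes and platelets. Kdr encodes VEGFR2, the main signalling receptor for vascular endothelial growth factor A (VEGF-A), and Flt1 encodes VEGFR1, which binds VEGF-A tightly and in its soluble form acts as a decoy. Tek encodes Tie2, the receptor of the angiopoietins, which keep vessels quiescent or destabilise them, and Tie1 is its relative and partner with no well-established ligand of its own. Emcn encodes endomucin, a mucin-like surface protein of capillary and venous endothelium. Fat is densely supplied with capillaries, through which fatty acids and hormones pass to and from adipocytes.

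Promoter sequences are shown for the 3 receptor genes that varied over 24 h in CON and for Tek, the gene whose daily mean differed between genotypes. RefSeq windows of GRCm38.p6 were matched for 5 of the 7 genes, and each stretch ends at the base before the annotated start of transcription. Flt1 lies on the minus strand at chr5:147726012-147726261, Kdr on the minus strand at chr5:75978456-75978705, Tie1 on the minus strand at chr4:118489850-118490099 and Tek on the plus strand at chr4:94739039-94739288. The 250 bases are written 5' to 3' along the gene, and capitals mark GGAAG or its reverse complement CTTCC, the core to which ETS-family proteins such as ERG and ETS1 bind.
Flt1: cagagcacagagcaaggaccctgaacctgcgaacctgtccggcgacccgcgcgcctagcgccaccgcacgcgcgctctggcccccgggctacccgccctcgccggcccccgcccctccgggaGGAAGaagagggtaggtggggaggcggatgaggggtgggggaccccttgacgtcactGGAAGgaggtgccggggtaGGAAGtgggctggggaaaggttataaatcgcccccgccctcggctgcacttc
Kdr: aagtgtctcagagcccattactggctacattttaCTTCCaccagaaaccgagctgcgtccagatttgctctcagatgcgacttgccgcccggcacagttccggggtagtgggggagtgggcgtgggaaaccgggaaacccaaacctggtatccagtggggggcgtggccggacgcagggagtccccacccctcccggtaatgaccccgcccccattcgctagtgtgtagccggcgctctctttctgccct
Tie1: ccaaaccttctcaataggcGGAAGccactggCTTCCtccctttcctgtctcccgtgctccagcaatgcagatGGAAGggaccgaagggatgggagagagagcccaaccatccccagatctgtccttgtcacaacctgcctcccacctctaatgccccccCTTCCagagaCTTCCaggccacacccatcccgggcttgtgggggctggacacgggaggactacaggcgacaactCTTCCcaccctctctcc
Tek: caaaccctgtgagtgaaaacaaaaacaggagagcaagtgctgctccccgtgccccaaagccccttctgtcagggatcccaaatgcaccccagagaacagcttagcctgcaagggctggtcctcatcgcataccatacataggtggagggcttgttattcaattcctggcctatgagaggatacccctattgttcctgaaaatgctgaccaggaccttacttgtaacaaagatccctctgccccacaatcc
GGAAG on either strand was found 3 times in the Flt1 window, 1 time in that of Kdr, 6 times in that of Tie1, 2 times in that of Emcn and 0 times in that of Tek. At least 1 match was present in 64.1% of all 32851 RefSeq windows of that length. CACGTG, the E-box bound by the CLOCK and BMAL1 pair, had 0 matches in the 5 windows, against 6.02% of all windows. GATAAG, recognised by blood and vessel factors of the GATA family, also had 0 matches, against 6.55%. AGGTCA, the core element of many nuclear receptors, was found 2 times in the Emcn window only, 153 and 29 bases before the start, against 14% of all windows with at least 1 match. These matches describe the letters of the windows and were not tested for binding.

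The deposited signals are log2 values that the authors made with RMA, so a difference of 1 is a doubling. Over all probe sets the array medians lay between 7.802 and 7.936, and Pearson correlations between arrays lay between 0.9820 and 0.9959. The narrowest spread of signals was found on 3 arrays, replicates 2 and 3 of CON CT7 and replicate 1 of CON CT13, with interquartile ranges from 1.942 to 1.968 against 1.984 to 2.185 in the others. The 7 endothelial genes had mean signals from 9.62 (Tie1) to 12.42 (Cdh5), which placed them between the 85.1 and the 99.5 percentile of all genes. Probe sets differ in brightness, so these ranks show that the genes were detected and do not order them by RNA amount. The source field of the labels names the mediobasal hypothalamus, whereas eWAT is named by titles and treatment text. The 8 adipocyte markers had a median percentile of 99.6 and the neuronal markers one of 39.3. Other blood-endothelial markers were present as well, with a median percentile of 87.4 over 14 genes, while the lymphatic regulator Prox1 stood at 18.8.

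In CON, Cdh5, Kdr, Flt1 and Tie1 varied over 24 h, with high signals at CT1 or CT7 and low signals at CT13 or CT19. Their fitted peak-to-trough differences were small, from 0.31 to 0.48 on the log2 scale (1.24-fold to 1.39-fold), and their fitted peaks lay between CT1.12 and CT5.28. Tek, Pecam1 and Emcn did not pass the same test. The count was therefore 4 of 7, where 17.1% of all 15526 genes passed (limma's moderated F over a 24-h cosine and sine, Benjamini-Hochberg adjusted p under 0.05). The median peak-to-trough was 0.31 over the 7 genes and 0.18 over all genes. Of all tested genes, 6.56% passed with a fitted peak between CT0 and CT6, the window that held the peaks of all 4. A whole-tissue signal cannot tell fewer endothelial cells from less RNA per endothelial cell.

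**Figure D1:**
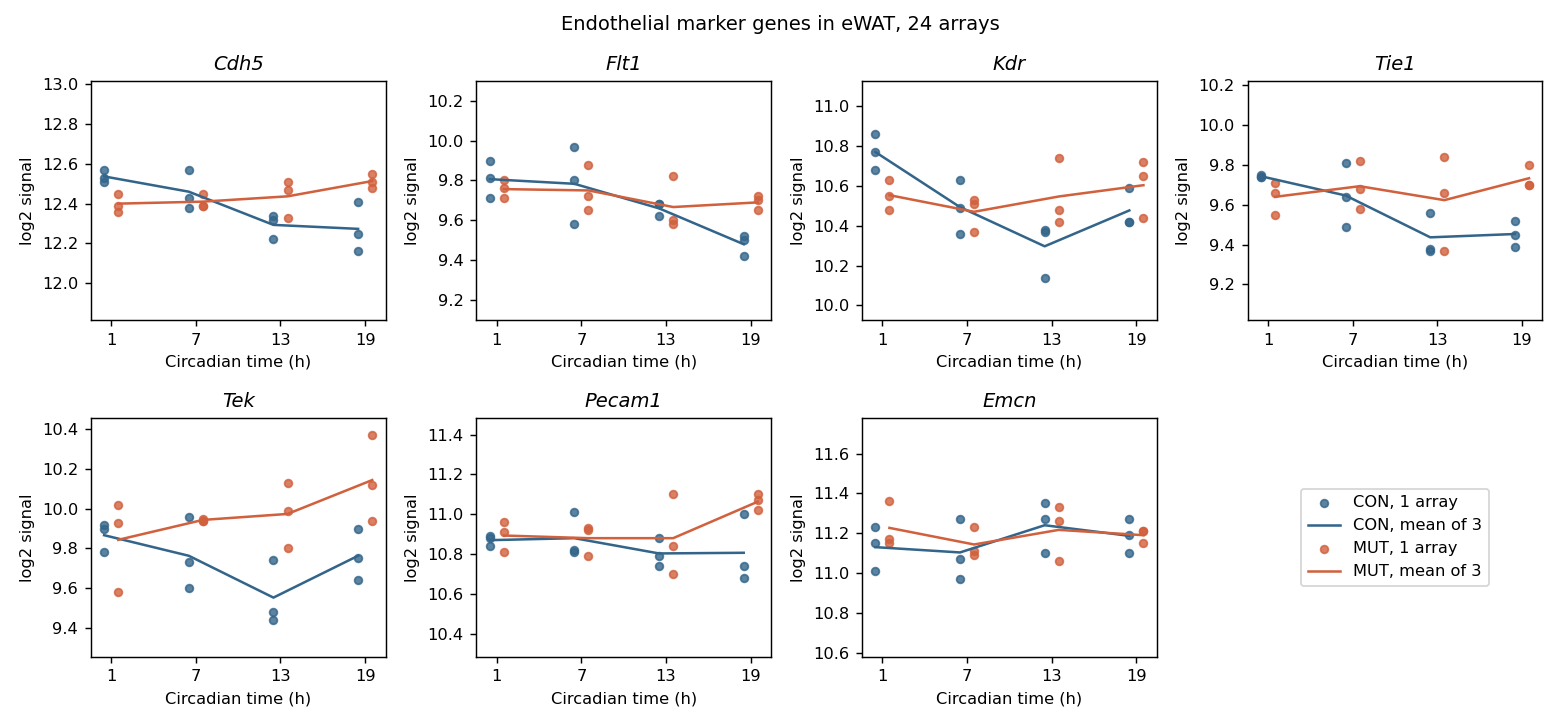
Log2 RMA signal of the 7 endothelial genes (y axes, 1 panel per gene, all of equal span around the gene's mean) at CT1, 7, 13 and 19 h (x axis). Each point is 1 array and each line joins the means of 3 arrays, in blue for CON and red for MUT; Cdh5 in CON runs from 12.54 at CT1 to 12.27 at CT19, while in MUT it runs from 12.40 to 12.51.

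Among the junction genes, Cdh5 read 12.57, 12.53 and 12.51 in the CON arrays at CT1, 12.57, 12.43 and 12.38 at CT7, 12.22, 12.32 and 12.34 at CT13, and 12.41, 12.16 and 12.25 at CT19. All 3 arrays at CT1 were above all 6 arrays of CT13 and CT19. The peak-to-trough was 0.31 ± 0.07 (SE), a 1.24-fold difference, with a fitted peak at CT3.48 ± 0.84 h (limma, adjusted p = 0.00974). In MUT the Cdh5 arrays read 12.36, 12.45 and 12.39 at CT1, 12.45, 12.39 and 12.39 at CT7, 12.47, 12.51 and 12.33 at CT13, and 12.55, 12.48 and 12.51 at CT19. The MUT means ran the other way, lowest at CT1 and highest at CT19, with a fitted peak-to-trough of 0.11 ± 0.07 that did not pass (adjusted p = 0.631). Pecam1, the other junction gene, had CON means of 10.87 ± 0.03 (SD, n = 3), 10.88 ± 0.11, 10.80 ± 0.07 and 10.80 ± 0.17 from CT1 to CT19. Its peak-to-trough of 0.10 ± 0.09 in CON was the smallest of the 7 and did not pass (adjusted p = 0.672).

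Of the VEGF receptors, Kdr had the largest 24-h difference of the 7 genes in CON. Its CON arrays read 10.77, 10.86 and 10.68 at CT1, 10.63, 10.49 and 10.36 at CT7, 10.14, 10.38 and 10.37 at CT13, and 10.59, 10.42 and 10.42 at CT19. The CT1 arrays lay above every other CON array, and CT13 was the low point. The peak-to-trough was 0.48 ± 0.10, or 1.39-fold, with a fitted peak at CT1.12 ± 0.77 h (limma, adjusted p = 0.00544). In MUT, Kdr read 10.55, 10.48 and 10.63 at CT1, 10.51, 10.37 and 10.53 at CT7, 10.42, 10.74 and 10.48 at CT13, and 10.65, 10.72 and 10.44 at CT19. These 4 groups overlapped, and the peak-to-trough of 0.13 ± 0.10 did not pass (adjusted p = 0.702).

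Flt1 in CON read 9.90, 9.81 and 9.71 at CT1, 9.97, 9.58 and 9.80 at CT7, 9.62, 9.68 and 9.68 at CT13, and 9.52, 9.42 and 9.50 at CT19. The CT19 arrays were below every other CON array, while CT1 and CT7 overlapped. The peak-to-trough was 0.33 ± 0.08, or 1.26-fold, with a fitted peak at CT5.28 ± 0.97 h (limma, adjusted p = 0.024). This call ended without CON CT7 replicate 1 (0.25, adjusted p = 0.0812), without CON CT7 replicate 3 (adjusted p = 0.0618) and without CON CT19 replicate 2 (adjusted p = 0.0707), while the adjusted p ran from 0.00493 to 0.0812 over the 24 single omissions. In MUT the group means of Flt1 were 9.76 ± 0.05, 9.75 ± 0.12, 9.67 ± 0.13 and 9.69 ± 0.04 from CT1 to CT19, and its peak-to-trough was 0.11 ± 0.08 (adjusted p = 0.757).

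Of the angiopoietin receptors, Tie1 in CON read 9.74, 9.75 and 9.74 at CT1, 9.81, 9.64 and 9.49 at CT7, 9.37, 9.38 and 9.56 at CT13, and 9.45, 9.52 and 9.39 at CT19. The CT1 arrays were nearly identical and lay above all arrays of CT13 and CT19. The peak-to-trough was 0.36 ± 0.10, or 1.29-fold, with a fitted peak at CT3.14 ± 1.01 h (limma, adjusted p = 0.0316). The call ended without any 1 of the 3 CON CT1 arrays, without CON CT13 replicate 1 or 2, and without CON CT19 replicate 3, with adjusted p from 0.011 to 0.0837 over the 24 omissions. It also ended in an F test over the 4 times without a cosine (adjusted p = 0.0628, from 0.013 to 0.0628 over the 14 other alternatives). In MUT the means of Tie1 were 9.64 ± 0.08, 9.69 ± 0.12, 9.62 ± 0.24 and 9.73 ± 0.06, with a peak-to-trough of 0.05 ± 0.10 (adjusted p = 0.962).

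Tek in CON read 9.90, 9.78 and 9.92 at CT1, 9.96, 9.73 and 9.60 at CT7, 9.48, 9.44 and 9.74 at CT13, and 9.90, 9.64 and 9.75 at CT19. CT13 was again the low point, yet the spread within groups was wider than for Cdh5. The peak-to-trough of 0.31 ± 0.12 did not pass (limma, adjusted p = 0.152), although it passed when arrays were weighted by their fit (adjusted p = 0.0295, from 0.0295 to 0.287 over the 14 alternatives other than omissions). In MUT, Tek read 9.93, 10.02 and 9.58 at CT1, 9.94, 9.95 and 9.94 at CT7, 9.99, 10.13 and 9.80 at CT13, and 10.12, 10.37 and 9.94 at CT19. Its MUT peak-to-trough was 0.24 ± 0.12 (adjusted p = 0.517).

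Emcn stood apart in the shape of its values. Its CON means were 11.13 ± 0.11, 11.11 ± 0.15, 11.24 ± 0.13 and 11.19 ± 0.08 from CT1 to CT19, and its MUT means were 11.23 ± 0.12, 11.15 ± 0.08, 11.22 ± 0.14 and 11.19 ± 0.04. The difference between its highest and its lowest group mean was 0.14, close to its pooled SD within groups of 0.11, and those 2 groups overlapped. Peak-to-trough was 0.14 ± 0.09 in CON (limma, adjusted p = 0.476) and 0.05 ± 0.09 in MUT (adjusted p = 0.949).

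**Figure D2:**
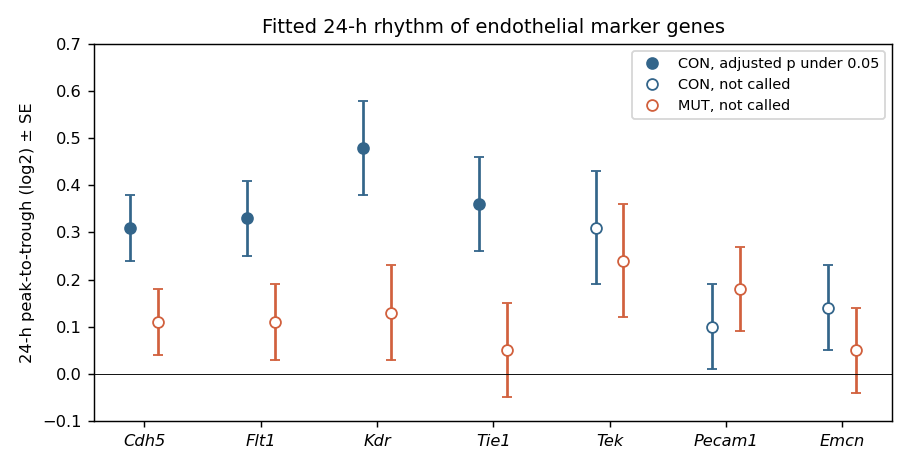
Fitted 24-h peak-to-trough (y axis, log2) of each endothelial gene (x axis) in CON (blue) and MUT (red), with bars of 1 SE. Filled points passed an adjusted p of 0.05; these are Cdh5, Flt1, Kdr and Tie1 in CON, from 0.31 to 0.48, and no MUT point passed.

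In MUT the count of genes with a 24-h pattern was 0 of 7 (limma), where 0.348% of all genes passed. At an unadjusted p under 0.05 it was also 0 of 7, against 14.6% of all genes. The median peak-to-trough was 0.11 over the 7 genes and 0.13 over all genes in MUT. The difference of the rhythms themselves, taken as the peak-to-trough of the MUT minus CON wave, was largest for Kdr (0.49 ± 0.13, adjusted p = 0.125), Tek (0.49 ± 0.17, adjusted p = 0.262) and Cdh5 (0.40 ± 0.10, adjusted p = 0.0657). It was 0.37 ± 0.14 for Tie1, 0.27 ± 0.13 for Pecam1, 0.25 ± 0.12 for Flt1 and 0.13 ± 0.13 for Emcn. The count that passed was 0 of 7 (limma), where 1.44% of all genes passed. At an unadjusted p under 0.05 the count was 4 of 7 (Cdh5, Kdr, Tie1 and Tek), against 15.7% of all genes. A rhythm that passed in CON and not in MUT is thus not shown to differ between them for any of the 7 genes. Cdh5 passed this test without CON CT19 replicate 1 (adjusted p = 0.0329) and without MUT CT13 replicate 3 (adjusted p = 0.0465), and its adjusted p ran up to 0.134 without other arrays.

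As a reference for time, the clock gene Nr1d1, a repressor that BMAL1 activates, peaked at CT4.65 ± 0.19 h in CON and at CT23.3 ± 0.34 h in MUT. The fitted peaks of the 4 called endothelial genes in CON fell in the same part of the day as that of Nr1d1, whose CON means were 12.04, 12.23, 10.06 and 9.42. In MUT, Nr1d1 kept a 24-h pattern (1.93 ± 0.17, limma, adjusted p = 9.54e-06), with means of 11.73, 10.83, 9.99 and 11.66.

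Between genotypes, the daily mean of Tek was higher in MUT by 0.24 ± 0.06, or 1.18-fold (limma, two-sided, adjusted p = 0.0108). The other 6 genes had differences from 0.03 to 0.10 and did not pass. The count was thus 1 of 7, where 21.7% of all genes passed, 12.3% of all genes with a higher mean in MUT, so the share is near the background. Of the 24 single omissions none ended the Tek call (adjusted p from 0.0048 to 0.0239). Without the 3 arrays of narrow spread it was 0.18 with an adjusted p of 0.139, in a range from 0.00167 to 0.162 over the 12 alternatives other than omissions. Among all calls 56.5% were higher in MUT, and 87.7% after arrays were shifted to the same median, a step that moves the median of all genes to 0.048. Quantile normalization turned the sign of the daily mean difference of Flt1, Kdr and Emcn, none of which passed. Their signs also turned without the 3 arrays of narrow spread (-0.02, -0.02 and -0.03). That of Kdr turned with a mesothelium score as a covariate as well (-0.04).

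Time by time, the sign of the difference changed over the day. At CT1 the MUT minus CON difference was -0.22 ± 0.10 for Kdr, -0.14 ± 0.07 for Cdh5 and -0.10 ± 0.10 for Tie1, and every MUT array lay below every CON array in these 3 of 7 genes, where the same held for 8.85% of all genes. At CT7 the differences ran from -0.05 to 0.17, and the arrays of both genotypes overlapped in all 7 genes, where 15.2% of all genes had every MUT array higher and 10.3% every MUT array lower. At CT13 the difference was 0.42 ± 0.12 for Tek and 0.25 ± 0.10 for Kdr, and every MUT array lay above every CON array in these 2 genes, where 10.0% of all genes did so. None of the 7 genes passed at CT1, CT7 or CT13 (limma, adjusted p from 0.109 to 0.99), where 0.0451%, 4.05% and 0.322% of all genes passed. At an unadjusted p under 0.05 the counts were 1, 0 and 3 of 7, against 11.5%, 20.6% and 19.8% of all genes.

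At CT19 the MUT arrays lay above the CON arrays without overlap in 5 of 7 genes, Cdh5, Pecam1, Flt1, Tek and Tie1, where 14.0% of all genes showed such a separation. For Cdh5 the MUT arrays read 12.55, 12.48 and 12.51 and the CON arrays 12.41, 12.16 and 12.25, a difference of 0.24 ± 0.07, or 1.18-fold (limma, adjusted p = 0.0547). For Pecam1 the MUT arrays read 11.07, 11.10 and 11.02 and the CON arrays 11.00, 10.68 and 10.74, a difference of 0.26 ± 0.09, or 1.2-fold (adjusted p = 0.0988). CON CT19 replicate 1 was thus the closest to MUT for both junction genes. For Tek the MUT arrays read 10.12, 10.37 and 9.94 and the CON arrays 9.90, 9.64 and 9.75, a difference of 0.38 ± 0.12, or 1.3-fold (adjusted p = 0.0798). Tie1 differed by 0.28 ± 0.10, or 1.22-fold (adjusted p = 0.0978), and Flt1 by 0.21 ± 0.08 (adjusted p = 0.153). Kdr, at 0.13 ± 0.10, and Emcn, at 0.01 ± 0.09, overlapped between the genotypes.

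With the threshold at an adjusted p of 0.05, the count at CT19 was 0 of 7 (limma), where 2.74% of all genes passed and 1.93% passed with a higher value in MUT. At an unadjusted p under 0.05 it was 5 of 7, against 22.8% of all genes. The median difference was 0.24 over the 7 genes and 0 over all genes. Omitting 1 array brought single genes past the threshold. Cdh5 passed without CON CT7 replicate 1 (adjusted p = 0.042), CON CT19 replicate 1 (0.0241), MUT CT13 replicate 2 (0.0492) or MUT CT13 replicate 3 (0.0451). Pecam1 passed without CON CT19 replicate 1 (adjusted p = 0.0372) and Tek without MUT CT19 replicate 3 (adjusted p = 0.0412). Omissions also took the adjusted p up to 0.293 for Cdh5, 0.387 for Pecam1 and 0.329 for Tek.

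**Figure D3:**
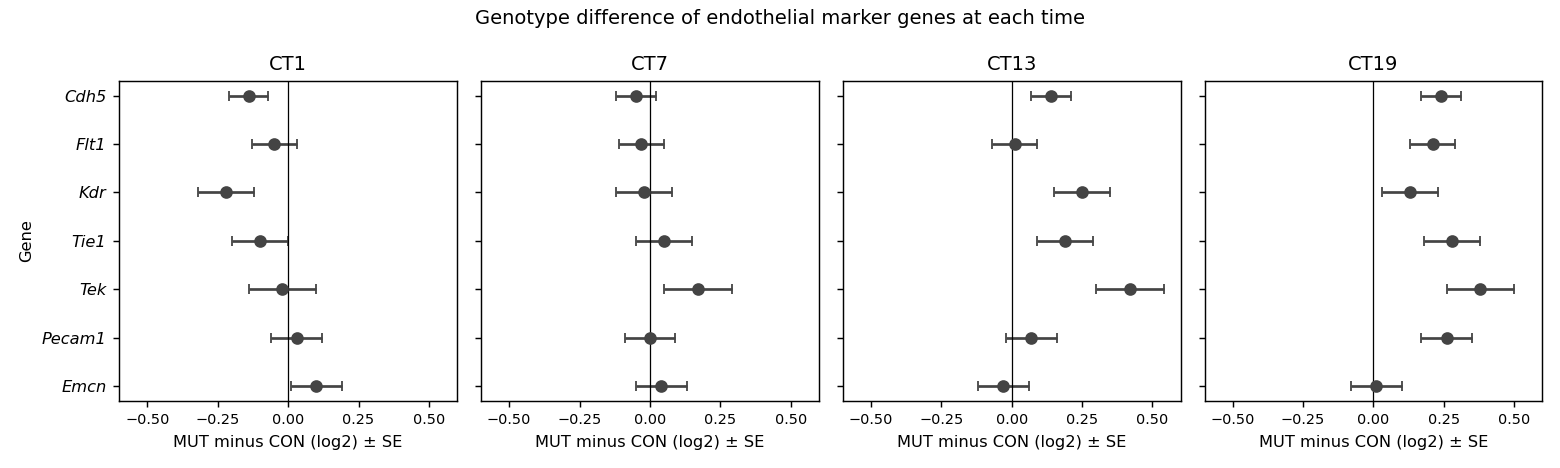
MUT minus CON difference (x axes, log2) of each endothelial gene (y axis) at CT1, CT7, CT13 and CT19 (panels), with bars of 1 SE from the fit over all arrays. Kdr lies at -0.22 at CT1 and 0.25 at CT13, and at CT19 the 7 genes lie between 0.01 and 0.38.

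When the 8 group means of each gene are put in order, most neighbours overlap. CON CT1 had the highest mean for Cdh5, Kdr, Flt1 and Tie1, and MUT CT19 had the highest for Tek and Pecam1. The lowest mean was CON CT19 for Cdh5, Flt1 and Pecam1, CON CT13 for Kdr, Tie1 and Tek, and CON CT7 for Emcn. Of the neighbours in order, 1 pair was free of overlap for Cdh5 (MUT CT1 above CON CT13), Flt1 (CON CT13 above CON CT19), Tek (MUT CT7 above CON CT1) and Pecam1 (MUT CT19 above MUT CT1), and 0 pairs for Kdr, Tie1 and Emcn. From highest to lowest group mean the span was 0.59 for Tek, 0.48 for Kdr, 0.32 for Flt1, 0.31 for Tie1, and 0.26 for both Cdh5 and Pecam1.

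Within groups, single arrays stood high or low in most of the 7 genes at once. CON CT7 replicate 1 was the highest of its group in 7 of 7 genes, CON CT13 replicate 1 was the lowest in 6 of 7 and CON CT19 replicate 1 the highest in 6 of 7. MUT CT13 replicate 2 was the highest of its group in 5 of 7. No share over all genes is given for these ranks, so they are not shown to be particular to the 7 genes. CON CT7 replicate 3 was the lowest of its group in 6 genes. This array, CON CT7 replicate 2 and CON CT13 replicate 1 are the 3 arrays of narrow spread. Of the CON CT7 arrays, replicate 1 alone is not among them. Without those 3 arrays the CON peak-to-trough was 0.37 for Cdh5 (limma, adjusted p = 0.0285), 0.42 for Kdr (0.0368), 0.51 for Flt1 (0.015) and 0.45 for Tie1 (0.0592, no longer past the threshold), with 1 array left at CON CT7 that is assumed to vary like the other groups.

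Over the 8 group means Cdh5 and Tie1 had the most alike profiles of the 7 (Pearson r = 0.94, n = 8 group means, as a description), followed by Tek and Pecam1 (0.84) and by Cdh5 and Kdr (0.80). Emcn was negatively correlated with all 6 others, from -0.06 to -0.51. With the mean profile of the 7, Tie1 reached r = 0.964, Cdh5 0.941, Tek 0.854, Kdr 0.810, Pecam1 0.804, Flt1 0.609 and Emcn -0.334, though each gene is part of that mean. The 6 other genes of all tested whose group means followed this profile most closely were Kmt2a (0.988), Phf21a (0.984), Nsmce2 (0.981), Ctnnbip1 (0.980), Ldb2 (0.979) and Upf2 (0.976). Kmt2a, a histone methyltransferase, had CON means of 9.91, 9.83, 9.70 and 9.71 and MUT means of 9.88, 9.84, 9.84 and 9.94. These 6 genes were picked for their correlation out of 15526, over points that share arrays.

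Other endothelial genes were read from lists of known markers and pathway members. Of 14 further pan-endothelial genes, 6 varied over 24 h in CON, again beside 17.1% of all genes, and all 6 had fitted peaks between CT0.995 and CT6.59. Cldn5, the tight-junction protein claudin-5, had the largest peak-to-trough of them, 0.72 ± 0.12 with a peak at CT1.43 (limma, adjusted p = 0.000982). Plvap, which forms the diaphragms of fenestrae and caveolae, gave 0.52 ± 0.10 (adjusted p = 0.00567), S1pr1, a sphingosine-1-phosphate receptor that steadies the barrier, gave 0.48 ± 0.10 (0.00742), and Cd93, an endothelial C-type lectin, gave 0.34 ± 0.08 (0.0117). The median over the 14 genes was 0.25. The calls of Cldn5 and Cd93 held under every omission and alternative run, whereas those of Plvap and S1pr1 ended only with a mesothelium score as a covariate (adjusted p = 0.091 and 0.0525). The calls of Eng and Ramp2 were less firm. Eng (0.37 ± 0.09, limma, adjusted p = 0.0209) lost its call under 3 of 24 omissions. Ramp2 (0.26 ± 0.07, adjusted p = 0.0484) lost its call under 17 of 24. Both also lost theirs with the mesothelium covariate.

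Of 13 endothelial transcription factors, 3 passed in CON, a share near the 17.1% of all genes, with peaks between CT3.07 and CT5.9. Sox7 and Sox18, related factors of vessel development, had peak-to-trough differences of 0.68 ± 0.11 (limma, adjusted p = 0.00143) and 0.56 ± 0.12 (0.00782), and Ets1, an ETS factor, had 0.49 ± 0.10 (0.00615). The Sox7 call ended with the mesothelium covariate (adjusted p = 0.0935). Erg, another ETS factor, was not among those called in CON, at 0.23 ± 0.07 with a peak at CT3.65 (adjusted p = 0.0729). It passed without CON CT7 replicate 3 or CON CT19 replicate 1. It also passed in an F test over the 4 times without a cosine (adjusted p = 0.00935). Among 10 genes of capillary lipid handling 3 passed, against the same 17.1%. Gpihbp1, which carries lipoprotein lipase to the capillary surface, gave 0.50 ± 0.09 with a peak at CT6.63 (adjusted p = 0.00194), and Scarb1, the HDL receptor SR-BI that adipocytes also make, gave 0.43 ± 0.08 at CT5.4 (0.00454), a call that ended with the mesothelium covariate (0.217, adjusted p = 0.314). Slc27a4, a fatty acid transporter found in many cells, gave 0.31 with a peak at CT21.5 (0.0279), a call that ended without any 1 of 6 CON arrays.

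Of 7 venous and activation genes 3 passed in CON, beside 17.1% of all genes. Ephb4, the venous receptor of ephrin-B2, gave 0.58 ± 0.08 with a peak at CT4.26 (limma, adjusted p = 0.000401), and its call held under every omission and alternative run. The leukocyte adhesion molecules Vcam1 (0.28, peak CT7.09, adjusted p = 0.0382) and Sele (0.27, peak CT13.4, 0.0323) lost their calls without any 1 of 7 and of 3 CON arrays. Of 10 arterial and Notch genes 2 passed, a share near that of all genes. They were Dll4, a Notch ligand of arterial and tip cells, with 0.50 ± 0.12 and a peak at CT17.1 (0.0172), and the receptor Notch1 with 0.32 and a peak at CT3.44 (0.0323). The Dll4 call ended without CON CT7 replicate 1 or CON CT19 replicate 1 and with the mesothelium covariate (0.135, adjusted p = 0.662). The Notch1 call ended without any 1 of 7 CON arrays and, like that of Vcam1, with the mesothelium covariate. Without the 3 arrays of narrow spread the calls of Notch1, Vcam1, Sele and Slc27a4 ended too. Over these 5 lists of blood endothelial genes, 17 of 54 tested genes passed in CON, 14 of them with a peak before CT8 and 3 with a peak from CT12 on. Of all genes 17.1% passed, 7.13% with a peak before CT8 and 9.38% with a peak from CT12 on.

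**Figure D4:**
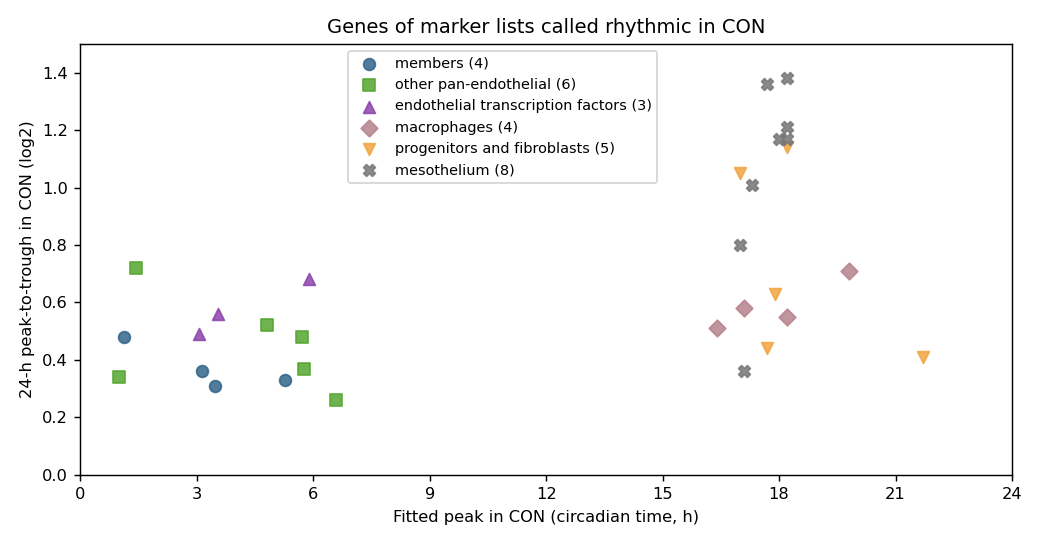
Fitted 24-h peak in CON (x axis, circadian time in h) against peak-to-trough (y axis, log2) for the genes of 6 marker lists that passed an adjusted p of 0.05; each symbol is 1 gene and the number in brackets is the count called. The called genes among the 7 and the 6 other pan-endothelial genes lie between CT0.995 and CT6.59, and the mesothelial, macrophage and progenitor genes lie between CT16.4 and CT21.7.

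Ligands and partners of the receptors followed. Of 7 tested VEGF ligands and co-receptors 0 passed in CON (limma), and of 5 genes of the angiopoietin-Tie axis 0 passed, beside 17.1% of all genes. At an unadjusted p under 0.05 the counts were 0 of 7 and 2 of 5, where 5229 of all 15526 genes passed. In an F test over the 4 times without a cosine, however, Vegfa passed both in CON (range of group means 0.364, adjusted p = 0.0132, against 0.174 and 0.239 with the cosine) and for the rhythm difference (0.575, adjusted p = 0.0231). In the daily mean, Vegfa, the ligand of Kdr and Flt1, was lower in MUT, with a MUT minus CON difference of -0.11 ± 0.04 (adjusted p = 0.0398). Its difference took both signs over the day, from -0.11 ± 0.08 at CT1 and -0.26 ± 0.08 at CT7 to 0.24 ± 0.08 at CT13 (adjusted p = 0.131) and -0.33 ± 0.08 at CT19. Of these times CT19 alone passed (adjusted p = 0.0283, a call that ended without any 1 of 4 arrays). Nrp2, a VEGF co-receptor, was higher by 0.16 (adjusted p = 0.0211). Angpt1, the activating ligand of Tie2, was also lower in MUT, with a difference of -0.46 ± 0.15 (adjusted p = 0.034), while Foxo1, a transcription factor held back by Tie2 signalling, was higher by 0.13 (0.0212) and Ptprb, the phosphatase VE-PTP that acts on Tie2, by 0.13 (0.0298). These calls compare with 21.7% of all genes. The daily mean call of Vegfa ended without any 1 of 15 arrays, that of Angpt1 without any 1 of 9 and that of Ptprb without any 1 of 8. All 5 ended without the 3 arrays of narrow spread, and Angpt1 had an adjusted p from 0.0159 to 0.511 over the alternatives other than omissions.

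Other daily mean calls among endothelial genes were higher in MUT, as was the case for 12.3% of all genes, and their counts per list were near or below the 21.7% of all genes called. They comprised 3 of 14 pan-endothelial genes, with Plvap at 0.22 ± 0.05 (limma, adjusted p = 0.00835) and Esam, a junctional adhesion molecule, at 0.15 (0.0277). They also comprised 1 of 13 transcription factors, Erg at 0.13 (0.0176), and 2 of 10 arterial genes, Dll4 at 0.23 (0.0126) and Efnb2, ephrin-B2, at 0.21 (0.0258). None of the 7 venous and 10 lipid-handling genes passed. At an unadjusted p under 0.05 the counts were 0 of 7 and 2 of 10, where 5898 of all 15526 genes passed. Without the 3 arrays of narrow spread these calls ended for Plvap, Esam, Erg and Efnb2 and held for Dll4. Esam also lost its call without any 1 of 4 arrays (CON CT7 replicate 3, CON CT13 replicates 1 and 2, CON CT19 replicate 2), and Efnb2 without any 1 of 3 (CON CT13 replicate 1, CON CT19 replicate 2, MUT CT19 replicate 2).

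At CT19, 5 of the 14 further pan-endothelial genes were higher in MUT, where 1.93% of all genes were. The median difference over the 14 was 0.24, the same as over the 7 genes, against 0 over all genes. Cldn5 was higher by 0.67 ± 0.12 (limma, adjusted p = 0.00354), S1pr1 by 0.48 (0.0178) and Plvap by 0.46 (0.023). Erg, which drives much of the endothelial programme, was higher by 0.44 ± 0.07 (adjusted p = 0.00233), a call that held under all 24 omissions. Cldn5 lost its call without CON CT19 replicate 2 (adjusted p = 0.0504), and S1pr1 and Plvap lost theirs without CON CT19 replicate 2, MUT CT19 replicate 1 or MUT CT19 replicate 2. The genes named for CT19 were picked after their values were seen. In MUT, no gene of any list passed for a 24-h rhythm, where 0.348% of all genes did. At an unadjusted p under 0.05, 3 of the 14 pan-endothelial genes did so, against 14.6% of all genes. At that threshold 8 of 8 mesothelial, 5 of 9 macrophage and 4 of 7 progenitor and fibroblast genes also did so. The rhythm difference between genotypes reached an unadjusted p under 0.05 in 0 of the 8 mesothelial genes, against 15.7% of all genes.

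Markers of other cell types in the fat pad also varied over the day. A score was taken per array as the median deviation of a list's tested genes from their means. In CON the mesothelium score was -0.30 ± 0.26 (SD, n = 3), -0.83 ± 0.04, 0.08 ± 0.32 and 0.30 ± 0.16 from CT1 to CT19, and in MUT it was 0.02 ± 0.17, -0.23 ± 0.49, 0.28 ± 0.63 and 0.59 ± 0.26. All 8 mesothelial genes passed for a rhythm in CON, beside 17.1% of all genes, with peaks between CT17 and CT18.2. So did 4 of 9 macrophage genes and 5 of 7 progenitor and fibroblast genes, with peaks from CT16.4 to CT21.7. Cd34, listed here with the progenitors, is also carried by endothelial cells. It gave 0.63 ± 0.10 with a peak at CT17.9 (limma, adjusted p = 0.000854), a call that ended with the mesothelium covariate (adjusted p = 0.172). The score of the 7 endothelial genes ran from 0.10 ± 0.03 at CT1 to -0.12 ± 0.07 at CT13 and -0.10 ± 0.13 at CT19 in CON. Of 3 tested lymphatic genes 2 passed in CON, Pdpn (0.84 ± 0.14, peak CT17.9, limma, adjusted p = 0.00145) and Lyve1 (0.78 ± 0.14, peak CT16, 0.00205), which mesothelium or fibroblasts and macrophages, respectively, also make; the Pdpn call ended with the mesothelium covariate (adjusted p = 0.279). Of smooth muscle and pericyte genes 2 of 10 passed and of adipocyte genes 2 of 8, shares near the 17.1% of all genes. Of platelet genes 0 of 4 passed, and 1 of 4 did so at an unadjusted p under 0.05, as did 5229 of all 15526 genes. The adipocyte score stayed between -0.04 and 0.05 in all 8 group means.

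With the mesothelium score as a covariate in the fit, the CON peak-to-trough was 0.36 for Cdh5 (limma, adjusted p = 0.0294), 0.59 for Kdr (0.00288), 0.56 for Tie1 (0.013) and 0.32 for Flt1 (0.173, no longer past the threshold). In the same fit the rhythm difference between genotypes passed for Cdh5 (0.42, adjusted p = 0.0459) and Kdr (0.53, 0.0424), and the daily mean of Tek did not (0.16, 0.162). The daily mean calls of Plvap, Esam, Nrp2, Vegfa, Foxo1, Ptprb, Angpt1, Erg, Dll4 and Efnb2 also ended in it. With the adipocyte score as a covariate instead, the calls of the 7 genes were the same: the CON rhythm passed for Cdh5 (0.31, adjusted p = 0.0114), Kdr (0.47, 0.00782), Flt1 (0.32, 0.0296) and Tie1 (0.36, 0.028), and the daily mean for Tek (0.26, 0.028). The mesothelium score itself varied with time and genotype, from -0.83 at CON CT7 to 0.59 at MUT CT19. The fit with that score therefore does not measure the part of mesothelium in these results. The part of macrophages, progenitors and mural cells was not tested either.

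**Figure D5:**
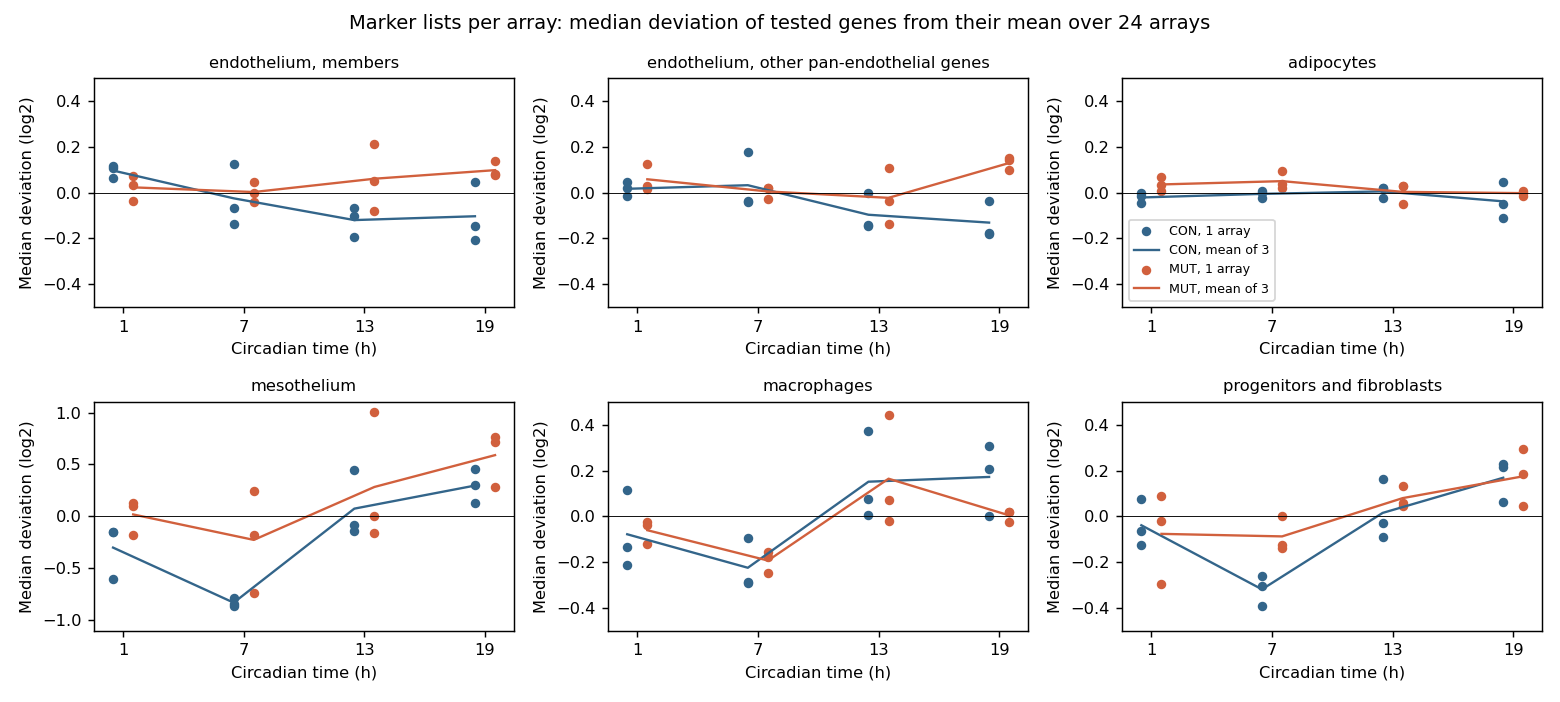
Score of 6 marker lists per array (y axes, median log2 deviation of the tested genes from their mean over 24 arrays; the mesothelium panel has a wider axis) at CT1, 7, 13 and 19 h (x axes). Points are arrays and lines join means of 3, in blue for CON and red for MUT; mesothelium in CON is lowest at CT7, at -0.83, while the endothelial genes in CON are highest at CT1, at 0.10.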

How the data were processed

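The authors' deposited values are log2 signals per probe set, made from Affymetrix arrays with RMA in Affymetrix Expression Console, per the submitters' processing notes; their versions are not given in the sources. Per the labels' protocols, Trizol was used for RNA and biotin for the label. Of 34390 probe sets, 23521 carried 1 gene symbol, 1814 several (not used) and 9055 none. The brightest probe set stood for each of 22180 genes, and those with a mean signal below 7.416, the 30th percentile, were dropped, leaving 15526. Values run from 4.157 to 14.497, no pair of arrays was identical, and 3 arrays a group limit the precision.

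A model of 8 group means (16 residual degrees of freedom) was fitted with limma 3.58.1 in R 4.3.3 and tested on simulated data. Rhythms used 24-h cosine and sine contrasts (F with 2 degrees of freedom), and genotypes were compared by limma's two-sided moderated test in the mean over the 4 times and at each time. All genes tested entered the Benjamini-Hochberg adjustment, and the threshold was 0.05. Promoters came from RefSeq on GRCm38.p6, and motifs were searched on both strands. The members and lists were chosen with earlier results of these data known. The text names all 7 genes, the timing reference and the 6 most alike genes. For the endothelial, VEGF and angiopoietin lists it names genes that passed, up to 4 with the smallest p in the CON rhythm. From the same lists it names up to 2 that passed in the daily mean. Further genes of these lists and genes of the other cell types were named by choice. Alternatives comprised arrays shifted to the same median, quantile normalization, a level filter at the 60th percentile or none, all probe sets or their mean per gene, array weights, trended and robust variance, the title letters as a block, mesothelium or adipocyte scores as covariates, omission of each array or of the 3 of narrow spread, F over 4 times without a cosine, and fits of single genotypes or times. Plots were made in matplotlib 3.10.9 under Python 3.11.15.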

Additional observations from a re-analysis of the deposited data

Results flagged for a closer look

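The 24-h rhythms of 4 of 120 tested genes of the other lists differed between genotypes by the test of the difference itself (limma, MUT minus CON), a share of 3.33% beside 1.44% of all genes. Of the 7 endothelial genes none did so with all arrays. Cdh5 did so without CON CT19 replicate 1 (limma, adjusted p = 0.0329) or without MUT CT13 replicate 3 (0.0465). Groups of 3 arrays are too small to judge a single array within its group, so each array was left out in turn. For Cldn5 the difference was 0.93 ± 0.16 (adjusted p = 0.00965), with means of 9.97 ± 0.07 (SD, n = 3), 9.35 ± 0.08, 9.25 ± 0.22 and 9.27 ± 0.18 in CON and of 9.41 ± 0.09, 9.41 ± 0.16, 9.40 ± 0.13 and 9.94 ± 0.23 in MUT from CT1 to CT19. Cldn5 was thus highest at CT1 in CON and at CT19 in MUT. Ephb4 differed by 0.65 ± 0.12 (adjusted p = 0.0149), with a peak-to-trough of 0.58 ± 0.08 in CON and 0.26 ± 0.08 in MUT. Both of these calls held under all 24 omissions and the other alternatives run. Gpihbp1 differed by 0.58 ± 0.12 (adjusted p = 0.041), a call that ended without any 1 of 12 arrays (adjusted p up to 0.117). Lep, which encodes the adipocyte hormone leptin, differed by 1.51 ± 0.20 (adjusted p = 0.000679), with a peak-to-trough of 1.38 ± 0.14 in CON and 0.19 ± 0.14 in MUT.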

How the results depend on the processing

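Of the 7 genes, 4 passed for a CON rhythm, and the count was 3 to 4 over the 24 single omissions. For the rhythm difference the count of 0 was 0 to 1 over omissions, 1 with the 60th-percentile filter, 1 with array weights and 2 with the mesothelium covariate. For the daily mean the count of 1 was 1 to 2 over omissions, 3 with arrays shifted to the same median, 2 with array weights, 0 without the 3 arrays of narrow spread and 0 with the mesothelium covariate. At CT19 the count of 0 was 0 to 2 over omissions, 1 with the shifted medians, 1 with the 60th-percentile filter and 4 with array weights. The cause of these changes was not tested. Counts for the MUT rhythm, CT1, CT7 and CT13 were 0 under every omission and alternative run. With the title letters as a replicate block the counts were 4 in CON and 1 in the daily mean. Same-letter arrays did not on average deviate together (mean r = -0.015, from -0.431 to 0.337), with 17 of 84 pairs above 0.1. The labels do not state what the letters mean, so whether they pair the mice is not known. Over all genes the CON count of 2650 ranged from 1843 to 2892 over omissions and from 1011 to 4194 otherwise, the MUT count of 54 from 26 to 141 and from 17 to 555, the rhythm difference of 223 from 119 to 371 and from 161 to 737, the daily mean of 3365 from 2146 to 4131 and from 255 to 4778, and CT19, at 425, from 36 to 623 and from 187 to 1642. The counts at CT1 (7), CT7 (629) and CT13 (50) ranged over all settings from 0 to 58, 49 to 2727 and 0 to 236. With the mesothelium covariate the CON rhythms of 3 mesothelial genes turned over, Upk1b to 0.131, Upk3b to 0.057 and Lrrn4 to 0.309, which follows from the construction of that covariate.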
